A study of Mus musculus with 20 samples.

Results

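The 10 genes described here are antioxidant genes of the Nrf2 pathway, followed in liver RNA of 20 female C57BL/6J mice, 28 weeks of age. They were chosen by name, as Nfe2l2, Keap1, Nqo1, Hmox1, Gclc, Gclm, Srxn1, Txnrd1, Gsr and G6pdx, and each matched 1 of the 55487 gene identifiers in the count table. The mice received chow or a high-fat diet (HFD) from 8 weeks of age, and during the last 10 weeks the HFD mice were given HFD in which part of the casein was replaced by protein from fishmeal made of salmon by-products, from salmon filet or from beef. No mouse carried a transgene, and no drug was among the treatments compared. The paper reports multivitamin drops in the drinking water, a glucose injection for a tolerance test, and isoflurane sedation before tissues were collected. Each library came from 1 mouse. The comparisons ask how HFD differs from chow, and how the 3 protein sources differ from each other, in the expression of these genes.

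Nrf2, encoded by Nfe2l2, is a transcription factor that is held in the cytosol and marked for degradation by Keap1, a cysteine-rich sensor protein. Oxidants and electrophiles modify Keap1, Nrf2 then accumulates in the nucleus, pairs with a small Maf protein and binds antioxidant response elements near genes for glutathione synthesis, thioredoxin recycling, quinone reduction and NADPH supply. In liver the pathway is known for its part in the response to drugs and other reactive compounds, much of which is governed by degradation of the Nrf2 protein, so Nfe2l2 RNA is not a measure of Nrf2 activity.

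Libraries held 42526234 to 70266136 counts on genes. The share of counts on protein coding genes was 93.2% to 95.6% in 19 libraries and 84.3% in mouse 35 of the beef group. The 6 hepatocyte marker genes summed to 87060 to 116300 CPM (read counts scaled to library size) per library. Mouse 31 is labelled salmon filet, while its column in the count table is named Beef. It was grouped with beef (5 mice per group), and values with the labelled groups (6 salmon filet, 4 beef) are given where they change a call. Genes of the circadian clock also separated the diets, with 11 of 15 called in HFD versus chow (9.75% of all genes called), so a clock score was computed per library as the first principal component of these 15 genes (89.0% of their variance). It ran from 2.28 to 6.38 in chow and from -7.63 to 4.58 in HFD. Results are given with this score as a covariate where that matters. Because the score itself differed with diet, the parts of diet and clock cannot be told apart in those fits. A call lost there is therefore not assigned to either.

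Nrf2 binding sites share a core that is commonly written TGACNNNGC. RefSeq promoter windows of 300 bases (250 before to 50 after the start, GRCm38.p6) were in hand for 7 of the 10 genes, 1 window each except for Txnrd1, which had 3. At least 1 window held the core on either strand in 5 of these 7 genes, and in 14.0% of all 27025 genes. The 4 matches that lie before the start are shown because they let G6pdx, the gene with the largest diet difference, be set beside other genes of the pathway. Each is read 5′ to 3′ along the gene, with the core or its reverse complement in capitals.

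Nfe2l2, chr2:75704885-75704913, minus strand: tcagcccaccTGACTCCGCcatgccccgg
Gclm, chr3:122245413-122245441, plus strand: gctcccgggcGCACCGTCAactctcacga
Txnrd1, chr10:82859104-82859132, plus strand: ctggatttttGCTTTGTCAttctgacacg
G6pdx, chrX:74428919-74428947, minus strand: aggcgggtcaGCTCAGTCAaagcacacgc

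The match of G6pdx begins at base -57 from the RefSeq start, that of Txnrd1 at -92, that of Gclm at -134 and that of Nfe2l2 at -240. Txnrd1 had its match in 1 of its 3 windows. Srxn1 had its match 28 bases after the start, and the windows of Nqo1 and Keap1 had none. The matches of G6pdx, Txnrd1 and Srxn1 also hold the narrower TGACNNAGC, a subset of the first pattern that is in 4.42% of genes. These are matches of letters, not measured binding.

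Compared per length, in TPM (transcript abundance scaled to gene length and library size), the genes of glutathione synthesis were the most abundant of the pathway and G6pdx the least. Gclc, the catalytic subunit of glutamate-cysteine ligase, had 199 ± 43.0 TPM (SD, n = 20) and its modifier subunit Gclm 72.1 ± 12.1 TPM. Nfe2l2 followed with 50.4 TPM on average, and this order held in 20 of 20 libraries at both steps. Txnrd1 (40.8), Hmox1 (40.0), Srxn1 (35.5) and Gsr (35.5) had mean TPM that could not be ordered, since Txnrd1 exceeded Hmox1 in 10 of 20 libraries, Hmox1 exceeded Srxn1 in 12 and Srxn1 exceeded Gsr in 9. Keap1 and Nqo1, with 25.9 and 25.8 TPM, could not be ordered either, with Keap1 higher in 11 of 20 libraries. G6pdx, which encodes glucose-6-phosphate dehydrogenase, the enzyme that opens the pentose phosphate pathway and yields NADPH, had 5.77 ± 3.55 TPM and was below Nqo1 in 20 of 20 libraries.

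**Figure D1:**
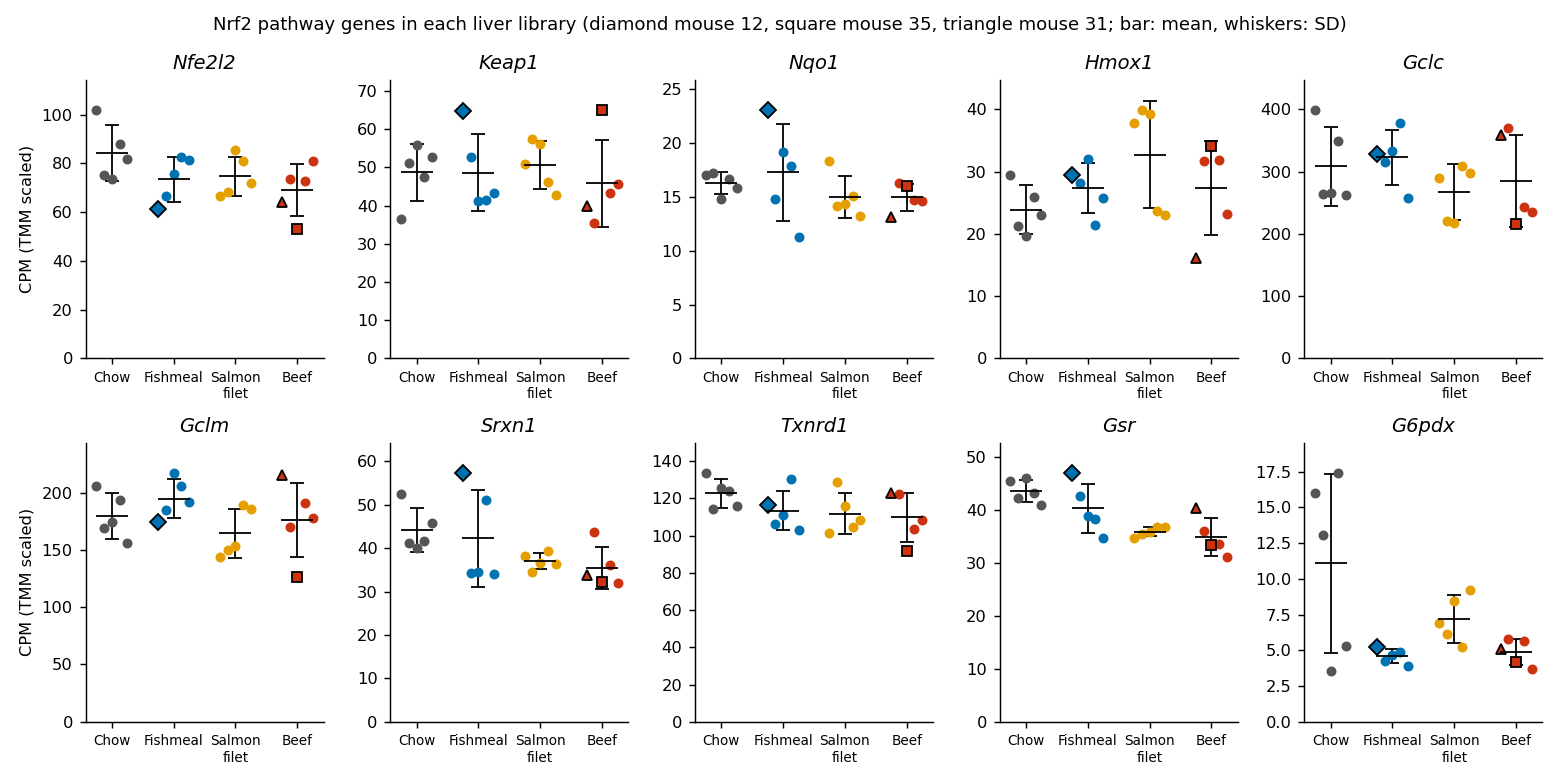
CPM (counts scaled to library size with TMM factors, linear axes from 0) of the 10 genes in each of the 20 libraries by diet, with the group mean (bar) and SD (whiskers, n = 5); mouse 12 is a diamond, mouse 35 a square and mouse 31 a triangle. G6pdx is high in 3 chow libraries only, Gsr of all salmon filet libraries lies below all chow libraries, and mouse 12 has the highest Nqo1, Srxn1 and Gsr of the 20.

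In HFD versus chow, G6pdx fell and the other 9 genes did not pass the test. That is 1 of 10, while 9.75% of the 17120 genes tested were called in either direction and 5.21% as lower, so the share called among these genes was close to that of all genes. Their median log2 fold change was -0.11, against 0.005 over all genes, and 9 of the 10 estimates were below 0. The exception was Hmox1.

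G6pdx had 16.0, 13.1, 3.55, 17.4 and 5.30 CPM in the chow mice 1, 2, 5, 7 and 10. In the 15 HFD libraries it ran from 3.70 to 9.24 CPM with a median of 5.21. The means were 11.1 ± 6.30 (n = 5) and 5.56 ± 1.59 CPM (n = 15). The groups overlapped: mice 1, 2 and 7 were above every HFD library, while mouse 5 was below all 15 of them and mouse 10 lay within their range. The log2 fold change was -1.004 (SE 0.25, 95% interval -1.53 to -0.48, adjusted p = 0.0139). Without chow mouse 1 it was -0.82 (adjusted p = 0.0811) and without chow mouse 7 it was -0.78 (adjusted p = 0.0877), so the call rests on these libraries.

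The same 3 chow mice had the highest clock scores of the 20 libraries, with 5.99 in mouse 1, 6.07 in mouse 2 and 6.38 in mouse 7, against 2.28 in mouse 5 and 4.25 in mouse 10. With the clock score as a covariate the log2 fold change of G6pdx was -0.68 (SE 0.39, adjusted p = 0.513), and 1.64% of all genes were then called. Summed CPM of 6 T and B cell markers was also higher in chow (4.69 to 10.1) than in HFD (2.02 to 4.72). Of the 6, 5 were called as lower, beside 5.21% of all genes. The part of these cells in the G6pdx difference was not tested. In bulk tissue, fewer cells of a type and less RNA per cell cannot be told apart.

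G6pdx lies on the X chromosome (GRCm38, chrX:74409483-74429194, minus strand) within the span of Ikbkg, an NF-kappaB signalling gene on the other strand, and the genes share 418 of the 3080 exon bases of G6pdx. The authors' strand setting for counting is not given in the sources used here, so reads of the pair may be mixed. Ikbkg had 75.4 ± 7.29 CPM in chow (n = 5) and 63.0 ± 7.03 CPM in HFD (n = 15), and its part in the result was not tested. The retrogene G6pd2, with 93.2% identity to G6pdx over 2332 bases, had at most 1 count in any library.

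**Figure D2:**
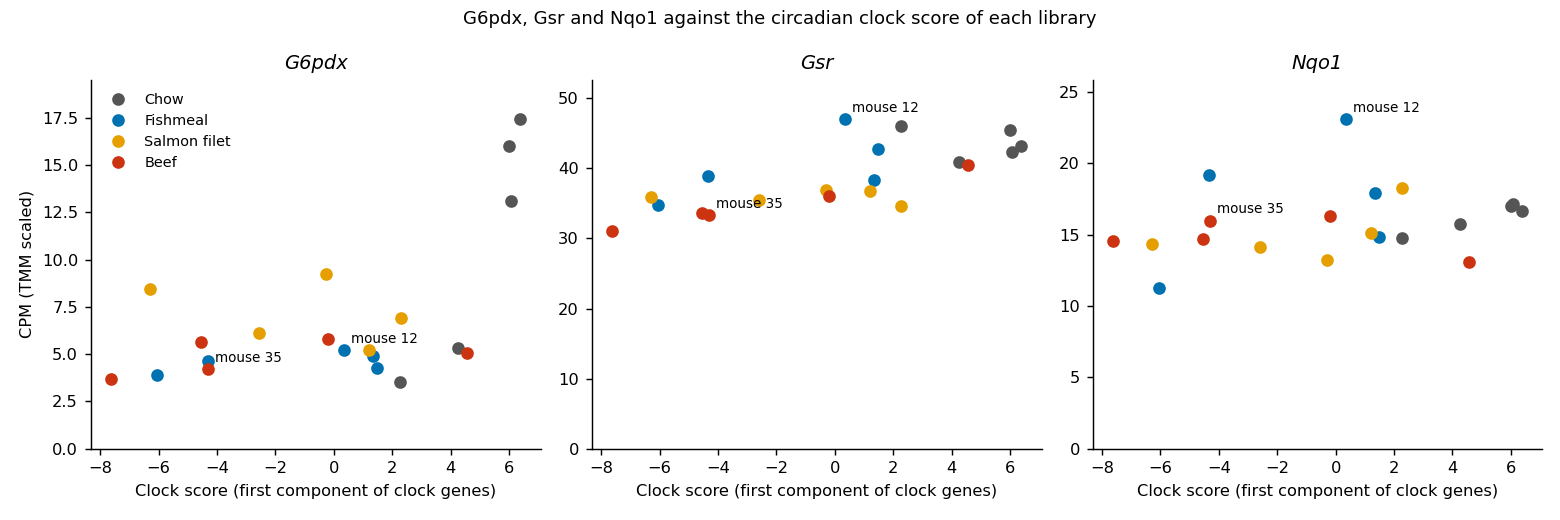
CPM of G6pdx, Gsr and Nqo1 (linear axes from 0) against the clock score of each library, coloured by diet. The 3 chow libraries with the highest G6pdx are the 3 with the highest clock scores, and mouse 12 stands above the other libraries in Nqo1 at a clock score of 0.34.

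In glutathione synthesis and recycling, Gclc and Gclm did not differ detectably between HFD and chow. Gclc had 308.6 ± 63.0 CPM in chow and 292 ± 57.0 CPM in HFD, and its log2 fold change was -0.09 (95% interval -0.38 to 0.21). Gclm had 179.9 ± 19.9 CPM in chow and 178.5 ± 26.2 CPM in HFD (log2 fold change -0.02, interval -0.24 to 0.21). Both intervals include 0. Gsr, glutathione reductase, which returns oxidised glutathione to its reduced form with NADPH, lay just outside the threshold.

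Gsr had 45.4, 42.3, 46.05, 43.2 and 40.9 CPM in the chow mice 1, 2, 5, 7 and 10. The fishmeal mice 12, 13, 14, 16 and 20 had 46.99, 42.7, 38.8, 38.3 and 34.7 CPM, the salmon filet mice ranged from 34.64 to 36.9 and the beef mice from 31.0 to 40.4. Apart from mice 12 and 13 of the fishmeal group, every HFD library was below every chow library. The log2 fold change in HFD versus chow was -0.24 (SE 0.08, adjusted p = 0.0515). Without mouse 12 it was -0.27 (adjusted p = 0.00945), which passes the threshold, and 2 of the 10 genes, Gsr and G6pdx, were then called beside 11.3% of all genes. With the clock score as a covariate it was -0.09 (adjusted p = 0.805).

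In the thioredoxin branch, Txnrd1 and Srxn1 had lower means in HFD but did not pass the test. Txnrd1 encodes the cytosolic thioredoxin reductase, and Srxn1 encodes sulfiredoxin, which repairs overoxidised peroxiredoxins. Txnrd1 had 122.7 ± 7.86 CPM in chow and 111.7 ± 10.9 CPM in HFD (log2 fold change -0.14, interval -0.30 to 0.02, adjusted p = 0.276). Srxn1 had 44.3 ± 5.05 CPM in chow and 38.2 ± 7.23 CPM in HFD (log2 fold change -0.21, interval -0.46 to 0.03, adjusted p = 0.278). In Srxn1 the fishmeal group split, with 57.4 CPM in mouse 12 and 51.1 in mouse 16 against 34.1 to 34.5 in the other 3 mice.

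Nqo1, the quinone reductase often read as a marker of Nrf2 activity, showed no detectable difference between HFD and chow. It had 17.0, 17.2, 14.8, 16.7 and 15.8 CPM in the 5 chow mice. In HFD the lowest value was 11.3, the median 14.8 and the highest 23.1 CPM, and both extremes were fishmeal mice, 20 and 12. The chow libraries lay inside the HFD range, and the log2 fold change was -0.05 (SE 0.12, interval -0.29 to 0.19). Hmox1, the inducible haem oxygenase, had 23.9 ± 3.92 CPM in chow and 29.2 ± 6.99 CPM in HFD (log2 fold change 0.28, interval -0.05 to 0.62, adjusted p = 0.298). Its HFD libraries spread from 16.2 CPM in mouse 31 to 39.97 in mouse 23 and so enclosed the chow values of 19.7 to 29.5 CPM.

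Of the regulators, Nfe2l2 had 84.2 ± 11.5 CPM in chow and 72.4 ± 9.08 CPM in HFD (log2 fold change -0.22, SE 0.10, adjusted p = 0.152). The highest value was 102.1 CPM in chow mouse 1 and the lowest 53.2 CPM in beef mouse 35. Keap1 had 48.7 ± 7.51 CPM in chow and 48.4 ± 9.07 CPM in HFD, and its log2 fold change was -0.01 (interval -0.27 to 0.24). At an unadjusted p under 0.05 there were 3 of the 10 genes, Nfe2l2, Gsr and G6pdx, each lower in HFD, while 24.4% of all genes were under it. DESeq2 called 2 of the 10, Gsr and G6pdx, beside 12.6% of all genes.

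**Figure D3:**
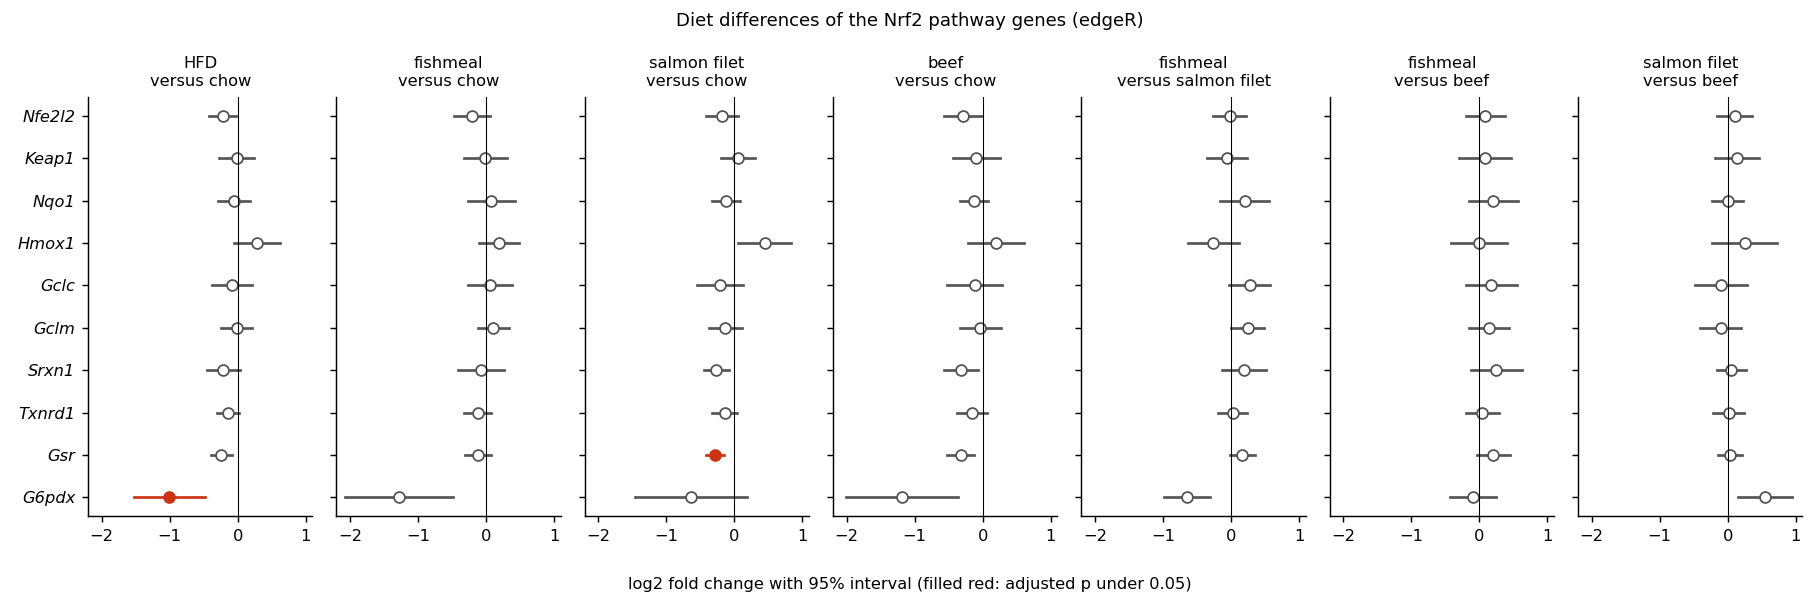
Log2 fold change (points) with 95% intervals (lines) of the 10 genes in 7 comparisons, from edgeR; filled red marks an adjusted p under 0.05. The 2 filled points are G6pdx in HFD versus chow at -1.004 and Gsr in salmon filet versus chow at -0.28, and the intervals of G6pdx against chow are the widest in each comparison with chow.

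The 3 protein sources were also set against chow singly, using the same 5 chow libraries each time, so the comparisons are not independent. In fishmeal versus chow 0 of 10 genes were called by edgeR, 1 was under an unadjusted p of 0.05 (16.9% of all genes) and DESeq2 called 1, with 3.38% of 16471 genes called by edgeR and 7.13% by DESeq2. G6pdx had 5.21, 4.27, 4.65, 4.91 and 3.92 CPM in the fishmeal mice 12, 13, 14, 16 and 20, a narrow range with chow mouse 5 below it and the other 4 chow mice above it. Its log2 fold change was -1.28 (SE 0.37, adjusted p = 0.0817). Without mouse 12 it was -1.32 (adjusted p = 0.105).

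In salmon filet versus chow, Gsr fell and was the only 1 of 10 genes called by edgeR, beside 4.42% of 16475 genes. DESeq2 also called 1, Gsr (adjusted p = 0.000513), beside 10.5% of all genes. In edgeR 3 were under an unadjusted p of 0.05 (23.8% of all genes). Srxn1 and Gsr were lower and Hmox1 was higher (log2 fold change 0.45, interval 0.06 to 0.83, adjusted p = 0.154). Gsr had 34.64, 35.45, 35.9, 36.7 and 36.9 CPM in the salmon filet mice 22, 23, 25, 26 and 27, all below the lowest chow value of 40.9. The log2 fold change was -0.28 (SE 0.06, interval -0.42 to -0.15, adjusted p = 0.0306), and with mouse 31 counted as salmon filet it was -0.25 (adjusted p = 0.0485, with 4.46% of all genes called). Leaving out single libraries kept the estimate between -0.31 and -0.26 but took the adjusted p past the threshold for 3 of the chow mice and each of the salmon filet mice (0.0514 to 0.0752). With the clock score as a covariate the estimate was -0.29 with a larger SE of 0.10 (adjusted p = 0.579), and 0.109% of all genes were then called. Srxn1 also did not overlap between the groups, with 34.4 to 39.3 CPM in salmon filet and 40.1 to 52.4 in chow (log2 fold change -0.27, adjusted p = 0.0932), where 8.28% of all genes did not overlap. G6pdx had 6.93, 6.11, 8.45, 5.21 and 9.24 CPM in the salmon filet mice, and 4 of these 5 lay between the values of chow mice 10 and 2 (log2 fold change -0.63, interval -1.46 to 0.19).

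In beef versus chow 0 of 10 genes were called by edgeR, 4 were under an unadjusted p of 0.05 (Nfe2l2, Srxn1, Gsr and G6pdx, all lower, beside 18.4% of all genes) and DESeq2 called 2 (Gsr and G6pdx), with 3.05% of 16339 genes called by edgeR and 7.25% by DESeq2. Gsr had 40.4, 36.05, 33.3, 33.6 and 31.0 CPM in the beef mice 31, 32, 35, 39 and 40, again below every chow library, as 6.16% of all genes were without overlap. Its log2 fold change was -0.33 (SE 0.09, adjusted p = 0.0750). With mouse 31 counted as salmon filet it was -0.38 and passed the test (adjusted p = 0.0438, with 2.48% of all genes called), a call that was lost when mouse 35 was also left out (-0.38, adjusted p = 0.0755). With mouse 31 in beef and without mouse 35 it was -0.30 (adjusted p = 0.127). G6pdx had 5.07, 5.81, 4.21, 5.65 and 3.70 CPM in the beef mice, and their log2 fold change was -1.19 (SE 0.38, adjusted p = 0.118).

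Between the HFD groups no gene of the 10 passed the edgeR test. In fishmeal versus salmon filet 0 were called, 2 were under an unadjusted p of 0.05 (Gclm and G6pdx, beside 5.16% of all genes) and DESeq2 called 1, with 0.17% of 16494 genes called by edgeR and 0.588% by DESeq2. G6pdx was lower in fishmeal, with 4.59 ± 0.51 CPM against 7.19 ± 1.65 CPM (n = 5 each), and the groups met at a single point, as fishmeal mouse 12 had 5.214 CPM and salmon filet mouse 26 had 5.209. The log2 fold change was -0.64 (SE 0.16, interval -0.99 to -0.30), which did not hold over all genes (adjusted p = 0.281). DESeq2 gave -0.63 with an adjusted p of 0.0363. Without mouse 12 edgeR gave -0.69 (adjusted p = 0.230), while with mouse 31 as labelled it gave -0.56 (adjusted p = 0.633). Gclm had 194.8 ± 17.0 CPM in fishmeal and 164.6 ± 21.6 CPM in salmon filet (log2 fold change 0.24, interval 0.01 to 0.48, adjusted p = 0.920).

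In fishmeal versus beef 0 of 10 genes were called, none was under an unadjusted p of 0.05 (2.59% of all genes) and DESeq2 called none, with 0.0245% of 16304 genes called by edgeR and 0.215% by DESeq2. The estimates ran from -0.09 (G6pdx) to 0.25 (Srxn1), and the interval of Nqo1 was -0.15 to 0.57. In salmon filet versus beef 0 of 10 genes were called by edgeR or DESeq2 and 1, G6pdx, was under an unadjusted p of 0.05 (4.91% of all genes), with 0% of 16212 genes called by edgeR and 0.037% by DESeq2. G6pdx was 7.19 ± 1.65 CPM in salmon filet and 4.89 ± 0.91 CPM in beef (log2 fold change 0.55, interval 0.16 to 0.94, adjusted p = 0.922).

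Mouse 12 of the fishmeal group lay at or near an extreme of the 20 libraries in several of these genes. A Dixon outlier test (gap to the next value over the range, critical value 0.71) was run within groups of 5. It flagged 0 of 40 gene and group sets. Mouse 12 had the highest value of the 20 libraries for Nqo1 (23.1 CPM, the other fishmeal mice 11.3 to 19.2), Srxn1 (57.4, others 34.1 to 51.1) and Gsr (46.99, others 34.7 to 42.7). It ranked second for Keap1 with 64.7 CPM and 19th for Nfe2l2 with 61.4 CPM, whereas its Gclc (328 CPM, rank 7) and Gclm (174 CPM, rank 12) were near the middle of the range. Without it the fishmeal mean of Nqo1 went from 17.3 ± 4.47 (n = 5) to 15.8 ± 3.53 CPM (n = 4) and that of Srxn1 from 42.2 ± 11.2 to 38.5 ± 8.42 CPM. In fishmeal versus salmon filet the log2 fold change of Nqo1 went from 0.20 to 0.08 and that of Srxn1 from 0.19 to 0.06. The library had a TMM factor of 0.88, the lowest of the 20, and the part of library quality in these values was not tested.

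**Figure D4:**
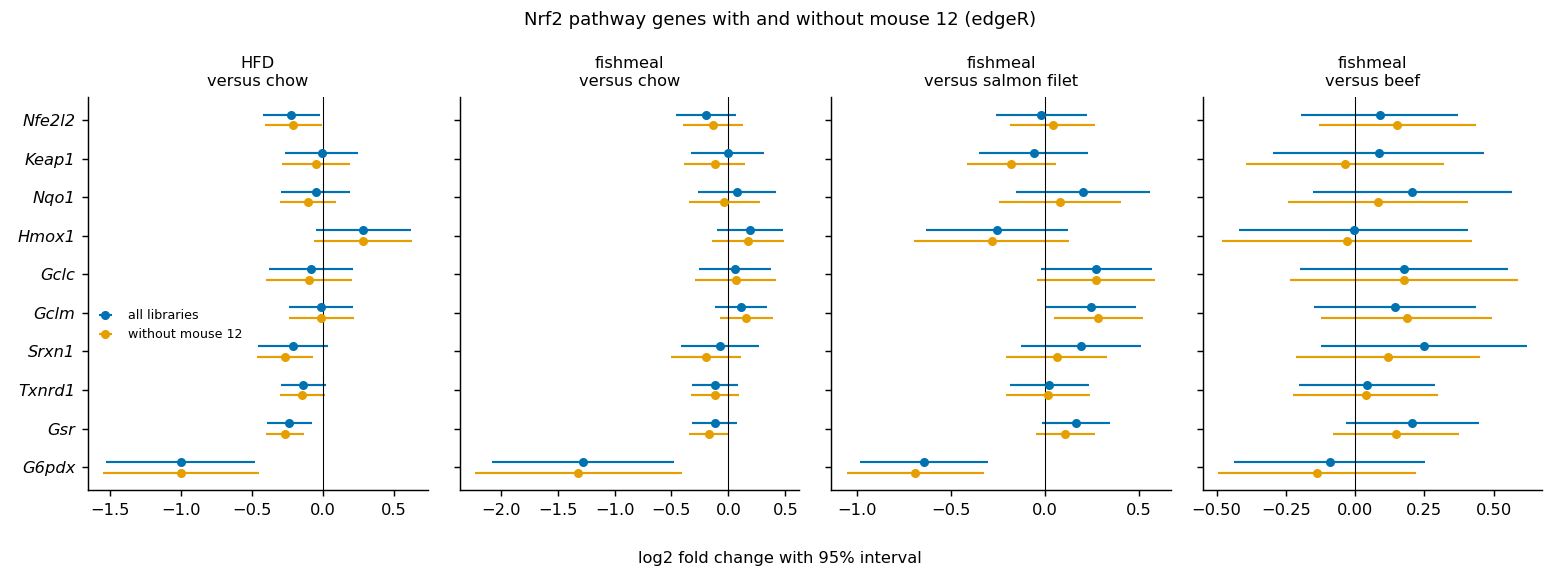
Log2 fold change with 95% interval of the 10 genes in the 4 comparisons that hold fishmeal libraries, with all libraries (blue) and without mouse 12 (orange). Leaving out mouse 12 moves Nqo1 in fishmeal versus salmon filet from 0.20 to 0.08 and G6pdx from -0.64 to -0.69, and all intervals of a pair overlap.

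Mouse 35 of the beef group, the library with the low share of protein coding counts, had the lowest value of the 20 for Nfe2l2 (53.2 CPM), Gclc (216.0), Gclm (126.4) and Txnrd1 (91.7) and the highest for Keap1 (65.1). With mouse 31 in beef, leaving it out changed no call among the 10 genes, and G6pdx in HFD versus chow was -0.98 (adjusted p = 0.0191) and Gsr -0.23 (adjusted p = 0.0617).

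The genes also differed in how much they varied among mice on the same diet. Gsr had a within-group SD of 0.12 on the log2 CPM scale, and 6.73% of 12692 genes with a mean of at least 1 CPM varied less. Txnrd1 followed with 0.14. G6pdx had 0.56, and 95.5% of those genes varied less, while Hmox1 had 0.34 and the other 6 genes 0.19 to 0.28. These SDs are pooled over the diets. For G6pdx the spread was largest in chow, with an SD of 56.9% of the mean CPM. It was 11.1% in fishmeal, 23.0% in salmon filet and 18.7% in beef. After group means were subtracted, 31 of the 45 pairs of genes had a Pearson r above 0 over the 20 libraries and 5 had an r above 0.5, with a median of 0.23. The closest pairs were Gclc with Gclm (r = 0.61) and Nqo1 with Srxn1 (r = 0.61, or 0.41 without mouse 12). Keap1 ran opposite to Gclm (r = -0.78) and to Nfe2l2 (r = -0.71, or -0.47 without mice 12 and 35). The libraries are shared by both genes of every pair, so a library that stands apart enters each r.

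The genes most like Nqo1 by the same measure were the long noncoding RNA Gm35164 (r = 0.78), Acat3 (0.72), Raet1e (0.72), Ly96 (0.72) and Hfe (0.71), and without mouse 12 the r of Acat3 was 0.59 and that of Hfe 0.52. For the mean of Nqo1, Gclc, Gclm, Srxn1, Txnrd1 and Gsr the closest genes outside the pathway were Smim15 (r = 0.93), Sept7, Kpnb1, Api5 and Rap2c (0.92 each), and these kept an r of at least 0.90 without mouse 12 or mouse 35. All of these genes were picked for the highest r in the same libraries, so a high r follows from the choice. The values without a mouse reuse the remaining libraries and are no separate test.

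Around these 10 genes, the list of the antioxidant and detoxification systems with most genes called between HFD and chow was that of the detoxification enzymes, and all of its calls were decreases. It was also the longest of these lists. The lists were chosen with earlier results of these data known, so its count is a description and not an independent test. Of 25 detoxification genes, many of them described targets of Nrf2, 9 fell and 0 rose (5.21% of all genes called as lower), with a median log2 fold change of -0.42. They were Gsta2, Gstm1, Gstm3, Gstm4 and Gstp1, which join glutathione to electrophiles, the microsomal epoxide hydrolase Ephx1, the efflux transporter Abcc4, the aldo-keto reductase Akr1b8, and Htatip2. Without mouse 12 there were 11 called, 10 lower and Abcc2 higher. With the clock score as a covariate 3 remained, Gstp1, Ephx1 and Htatip2, all lower, beside 1.64% of all genes called. In HFD versus chow with no covariate, 2 of 6 markers of sinusoidal endothelium were called as lower (Clec4g and Fcgr2b), beside 5.21% of all genes. Stab2 of the same list had an uncalled estimate of 0.23. The 6 markers summed to 205.8 to 229.3 CPM in chow and 167.5 to 227.0 in HFD. Of 6 cholangiocyte markers 1 was called as lower (Sox9), with summed CPM of 42.6 to 78.8 in chow and 32.0 to 91.7 in HFD. Spp1 (0.09) and Cftr (0.30) of that list had uncalled estimates above 0. Called as higher were 1 of 6 red blood cell markers (Alas2, 0.71) and the only exocrine pancreas marker tested (Cela1, 0.77), beside 4.54% of all genes. The part of these cell types, and of the T and B cell markers, in the detoxification values was not tested.

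Htatip2 had 44.3, 53.8, 51.2, 53.5 and 43.9 CPM in chow and 20.8 to 37.4 CPM in HFD, with mouse 12 the highest HFD library. The groups did not overlap, as was true of 1.58% of all genes, and the log2 fold change was -0.96 (adjusted p = 4.60e-06; -0.80 with the clock score, adjusted p = 0.00549). Gsta2 had the largest decrease, from 30.7 ± 11.5 CPM in chow to 9.60 ± 6.08 CPM in HFD (log2 fold change -1.68, adjusted p = 0.00576). Gstm3 went from 77.8 ± 30.7 to 27.6 ± 13.0 CPM (log2 fold change -1.50) and was highest in chow mice 1, 2 and 7, as G6pdx was. With the clock score, Gsta2 was at -1.01 (adjusted p = 0.448) and Gstm3 at -1.11 (adjusted p = 0.203). Gstm4 did not overlap either, with 84.6 to 101.5 CPM in chow and 39.3 to 72.5 CPM in HFD (log2 fold change -0.80), nor did Abcc4, with 5.97 to 7.84 against 1.99 to 5.50 CPM (log2 fold change -0.92).

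The glutathione transferases have near-identical relatives, which the counting could have split. Gsta2 matches Gsta1 at 97.2% over 870 bases, and Gsta1 held 3 to 31 counts per library. Gstm3 matches Gm8834 at 97.9% over 567 bases (140 to 764 counts) and Gstm1 at 91.3% over 598 bases. Gstp1 matches Gstp2 at 98.2% over 707 bases (11 to 43 counts), and Gstm1 matches Gstm2-ps1 at 97.9% over 657 bases (403 to 2455 counts). Outside the transferases, Akr1b8 matches Akr1b10 at 95.6% over 250 bases (65 to 177 counts). The values of genes with such relatives are uncertain to that extent, while Htatip2 and Abcc4 had no match of 200 bases or more at 90% identity. Of the 9 lower genes 2, Abcc4 and Htatip2, held the TGACNNNGC core in their promoter windows, against 3 of the 13 other detoxification genes that had a window.

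Against the same chow libraries, 3 of 25 detoxification genes fell in the fishmeal group, where 1.93% of all genes were called as lower. The salmon filet group had 9 of 24 lower (2.2% of all genes) and the beef group 9 of 25 (1.52%), and none of the list rose by edgeR in any of the 3 comparisons (DESeq2 called 1 higher, in beef). The log2 fold change of Htatip2 was -0.83 for fishmeal, -0.94 for salmon filet and -1.15 for beef, and Gstm3 was called for salmon filet (-1.43) and beef (-2.01). Mouse 12 was the highest fishmeal mouse for Htatip2 (37.4 CPM, others 20.8 to 30.7), Gstm1 (1465, others 761 to 1204) and Gstm4 (72.5, others 40.4 to 68.7). For Gstm3 and Abcc4 it was mouse 16. Without mouse 12 the fishmeal mean of Htatip2 went from 27.9 to 25.5 CPM. The part of mouse 12 in the fishmeal count of 3 was not tested. Whether the decrease differed between the diets was tested gene by gene in the comparisons of the HFD groups, where edgeR and DESeq2 called 0 of the detoxification genes. At an unadjusted p under 0.05 in edgeR, fishmeal versus salmon filet had 2 (5.16% of all genes) and fishmeal versus beef 2 (2.59%). Salmon filet versus beef had 4 (4.91%).

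**Figure D5:**
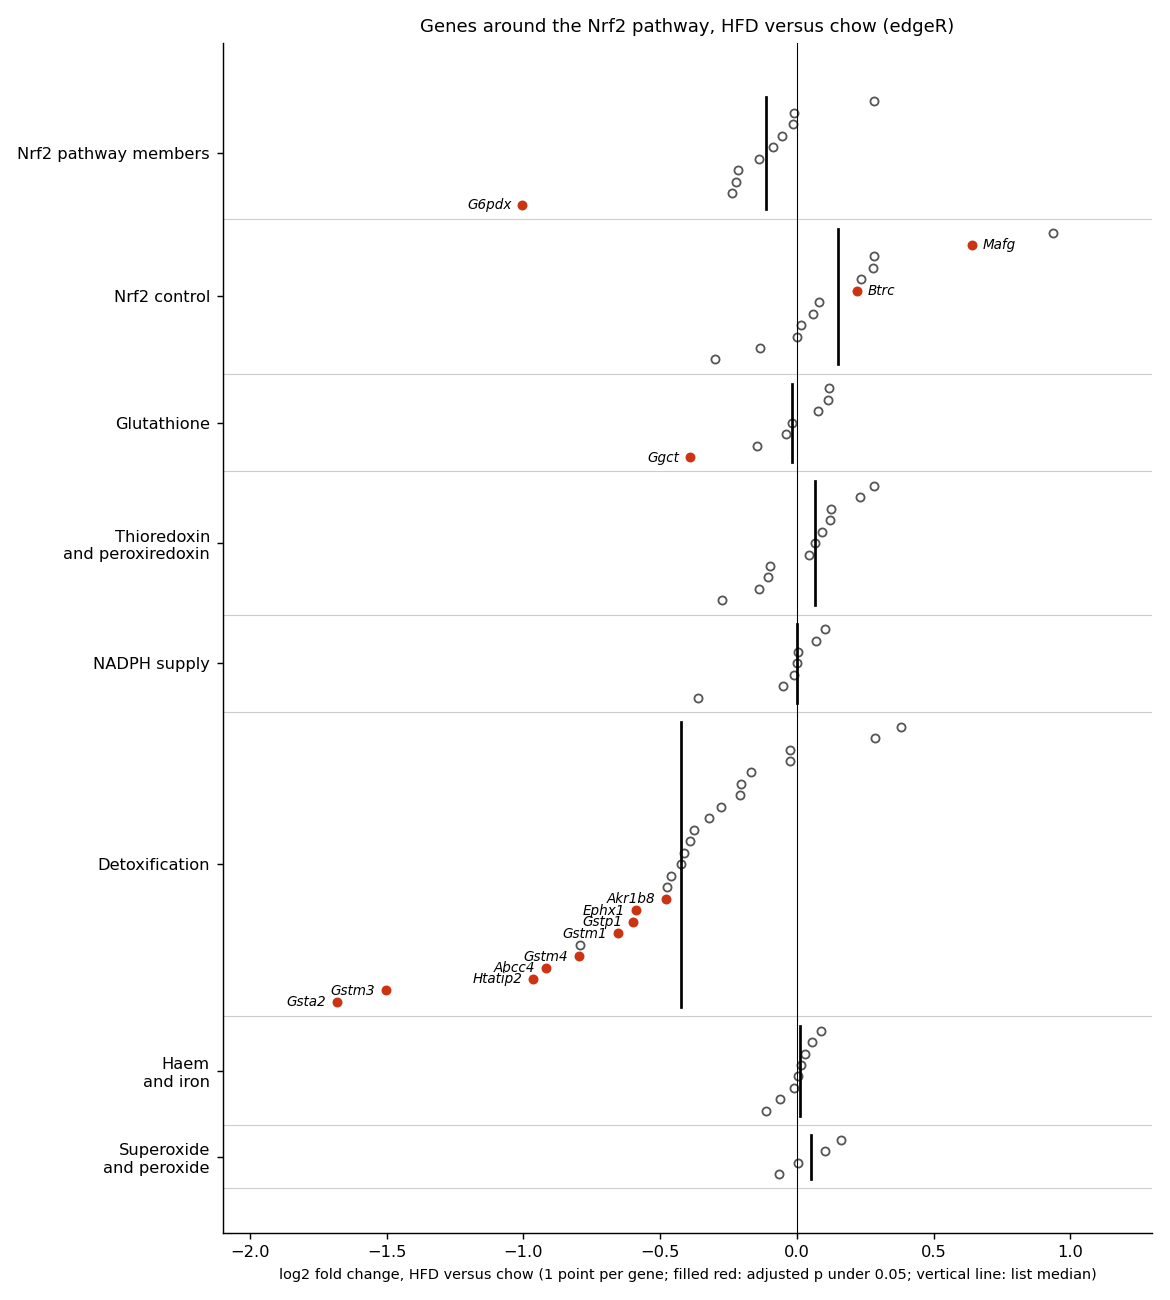
Log2 fold change in HFD versus chow of each tested gene in the pathway and in 7 lists around it, 1 point per gene, with filled red points for an adjusted p under 0.05 and a vertical line at the list median. The detoxification list has its median at -0.42 with 9 filled points left of 0, while the medians of the thioredoxin, NADPH, haem and superoxide lists lie at most 0.07 from 0.

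Few genes of the other lists were called. Among 12 genes that control Nrf2, 2 rose in HFD: Mafg, a small Maf partner of Nrf2, and Btrc, a subunit of a ubiquitin ligase that also acts on Nrf2, while 4.54% of all genes were called as higher. With the clock score 0 of the 12 were called (1.64% of all genes) and 3 were under an unadjusted p of 0.05 (12.6% of all genes). Mafg went from 53.4 ± 9.40 CPM in chow to 83.4 ± 14.4 CPM in HFD, with 39.4 to 64.5 CPM in chow and 56.5 to 111.2 in HFD (log2 fold change 0.64, adjusted p = 0.00218; 0.31 with the clock score, adjusted p = 0.294). Btrc was close to the threshold (log2 fold change 0.22, adjusted p = 0.0467) and missed it in 23 of 28 alternatives. Of 10 further glutathione genes 7 were tested and 1 fell, Ggct, a gamma-glutamyl cyclotransferase (log2 fold change -0.39, adjusted p = 0.0383), beside 5.21% of all genes called as lower. The call of Ggct was lost in 12 of 28 alternatives, among them the clock score (-0.37, adjusted p = 0.341) and each chow mouse left out.

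No gene was called by edgeR among 11 of the thioredoxin and peroxiredoxin systems, 7 that supply NADPH, 8 of haem and iron metabolism or 4 that remove superoxide and peroxide. At an unadjusted p under 0.05 there were 2 in the first of these lists and 0 in the other 3, beside 24.4% of all genes. DESeq2 called 1 in the first, beside 12.6% of all genes. The NADPH list, which holds the partners of G6pdx in the pentose phosphate pathway such as Pgd, Tkt and Taldo1, had its median log2 fold change at 0.000665, with -0.05 for Tkt and 0.10 for Taldo1. The estimate furthest from 0 in this list was that of Me1, at -0.36 (interval -0.85 to 0.12, adjusted p = 0.364).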

How the data were processed

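Strand-specific mRNA libraries from the livers of 20 mice were read from both ends. The authors removed adapters with BBDuk, mapped them with HISAT2 1.2.1 and deposited raw counts per gene (featureCounts 1.4.6-p1) and a table of TPM. The files' genome is named GRCh38, while 55141 of the 55487 mouse identifiers were found in GENCODE M21 (GRCm38), whose positions are given. The settings for strand and for reads that fit several genes are not given in the sources used here.

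Deposited counts were tested with edgeR 4.0 in R 4.3 (TMM, filterByExpr at a minimum count of 10, two-sided quasi-likelihood F-tests, Benjamini-Hochberg over all genes tested, called at an adjusted p under 0.05), on the libraries of the groups compared. CPM used TMM factors over 20 libraries, with a prior count of 2 on the log2 scale. TPM served to compare levels between genes and for the limma alternative named next. Alternatives were DESeq2 1.42, other scalings, filters of 1 count in all or 10 in every library, 1 fit on all groups, limma 3.58 on log2(TPM + 1) of genes whose TPM averaged at least 0.5, a clock covariate, the labelled groups, and each library left out. Near-identical transcripts were sought with blastn at 90% identity over 200 bases. The tests were checked on simulated counts. 2 alternatives, labelled groups without mouse 12 or mouse 35, were added later.

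The 10 genes and the lists around them were chosen with earlier results of these data known. Named were the 10 genes, list genes called in HFD versus chow or between HFD groups, and the 5 genes most correlated with Nqo1 or with the mean of 6 of them. Abcc2 and the NADPH genes with values were named after their values were seen. The 40 pairs of libraries within groups all differed by more than counting noise (chi-square divided by the number of genes at least 35.1).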

Additional observations from a re-analysis of the deposited data

How the results depend on the processing

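In HFD versus chow 1 of the 10 genes was called, and 2 were called with DESeq2, with upper quartile factors, with genes of at least 10 counts in every library and with 1 fit on all 4 groups (Gsr beside G6pdx each time), 0 with the clock covariate, and 0 to 2 when single libraries were left out. It was 0 without chow mouse 1 or 7 and 2 without chow mouse 10, fishmeal mouse 12 or 13, or mouse 31. G6pdx missed the threshold with limma on log2(TPM + 1) (-0.75, adjusted p = 0.0751), where Gsr was the gene called.

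In fishmeal versus chow the count of 0 became 1 (G6pdx) with DESeq2, with all genes of at least 1 count and with 1 fit on all 4 groups, and was 0 to 1 over single libraries left out. In salmon filet versus chow the count of 1 became 0 with genes of at least 1 count, with 1 fit on all 4 groups and with the clock covariate, and was 0 to 1 over libraries left out. In beef versus chow the count of 0 became 2 with DESeq2 and with 1 fit on all 4 groups, 1 with the labelled groups, and was 0 to 1 over libraries left out. In fishmeal versus salmon filet it became 1 with DESeq2. The detoxification count of 9 became 3 with the clock covariate, under which Mafg, Gsta2, Gstm1, Gstm3, Gstm4, Abcc4 and Akr1b8 each missed the threshold and were called in the other 27 alternatives. Btrc missed it in 23 of 28 alternatives and Ggct in 12, with no change of sign, while Gstp1, Ephx1 and Htatip2 were called in 28.

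Uncalled estimates near 0 changed sign in HFD versus chow. With the clock covariate Nqo1 was 0.0838, Gclc 0.31 and Gclm 0.0818. With single libraries left out Keap1 ran from -0.0949 to 0.0396 (8 sign changes, values of 0.00601, 0.03956, 0.01118, 0.003533, 0.003042, 0.001819, 0.009879 and 0.01402), Gclc from -0.14 to 0.0329 and Gclm from -0.0662 to 0.0451. The causes were not tested. No paired analysis was possible because the labels give no replicate numbers shared between groups. G6pdx had the lowest counts of the 10 genes, 176 to 1068 per library, and intervals cover the spread between mice and counting error.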
